A study of Mus musculus with 7 samples.

Results

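The genes described here encode the nuclear-encoded subunits of the 5 oxidative phosphorylation complexes of the mouse. They were chosen by symbol alone, as every row of the expression table whose symbol begins with Nduf followed by a, b, c, s or v and a digit, is Sdha, Sdhb, Sdhc or Sdhd, or begins with Uqcr, with Cox and a digit from 4 to 8 and a letter, or with Atp5. This gave 90 of the 19589 genes of the table. Of these, 35 belong to complex I (7 core and 28 accessory subunits), 4 to complex II, 8 to complex III, 20 to complex IV and 15 to complex V, and the other 8 are 6 pseudogenes and the genes Atp5s and Atp5sl, which encode no subunit. RNA sequencing was done on CD4+ cells sorted by flow cytometry from the spleens of C57BL/6 mice, with 4 wild-type libraries (WT1 to WT4) and 3 libraries labelled RT (RT1 to RT3), which per the series title are Tet2-/- and carry the G17V form of RHOA. TET2 is an enzyme that oxidises 5-methylcytosine in DNA, and RHOA is a small GTPase. The labels give neither the age of the mice nor what drives the RHOA variant. The design describes the libraries as separate mice.

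Oxidative phosphorylation takes place in the inner mitochondrial membrane. Complexes I and II pass electrons from NADH and succinate to ubiquinone, complex III passes them on to cytochrome c, complex IV reduces oxygen, and complex V, the ATP synthase, uses the proton gradient built by complexes I, III and IV to make ATP. Complex II is encoded by nuclear genes only, while the other complexes combine nuclear-encoded subunits with a few encoded by mitochondrial DNA. T cells are known to raise mitochondrial respiration as they leave quiescence.

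The libraries fell into a deep set and a shallow set, which each hold both genotypes. The deposited values are RPKM, reads scaled by gene length and by the library's total. Whole reads were worked out from their steps for all but 10 genes, though not exactly for every gene. The total behind the values was 18566233 to 21800352 reads in the deep libraries (WT1, WT2 and RT1) and 105763 to 121659 in the shallow ones (WT3, WT4, RT2 and RT3), so that 1 read in a gene of 500 bases was worth 0.0917 to 0.108 RPKM in the deep set and 16.4 to 18.9 RPKM in the shallow set. Reads recovered in genes were 53.7 to 58% of that total in the deep libraries. They were 96.5 and 96.7% in WT3 and WT4 and 100.1 and 100.2% in RT2 and RT3. RPKM levels therefore do not compare between the sets. A share above 100% means that some recovered counts are too high. Tet2 was listed at 6.32 and 4.68 RPKM in WT1 and WT2 and at 5.03 RPKM in the library labelled RT1, so this library lay between the wild-type ones, against its label as far as a value over the whole gene can show a deletion. Tet2 stood at 2.86 and 2.79 RPKM in WT3 and WT4, at 0.80 RPKM in RT2 and at 0 in RT3. At the depth of the shallow set such low values stand for few reads, so they cannot settle the genotype of RT2 and RT3. Every direction drawn below from the deep set rests on the library labelled RT1. Cd4 was present in all 7 libraries, from 122 to 463 RPKM, and all 12 T cell identity genes examined had reads. Markers of other spleen cells were also found. The B cell list summed to 1463 and 1674 reads per 1000000 recovered reads (RPM) in the wild-type shallow libraries against 142 and 213 RPM in the RT ones, and the monocyte and macrophage list to 3331 RPM in the library labelled RT1 against 863 and 645 RPM in WT1 and WT2. In bulk RNA, fewer cells of a type and less RNA per cell cannot be told apart.

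Some ATP synthase values of the shallow libraries sat 1 row below their gene. In those libraries the table lists Atp5d, Atp5l and Atp5o at 0 and gives the pseudogenes Atp5l-ps1 and Atp5k-ps2 values, while in the deep libraries Atp5d stood at 22.6 to 31.9 RPKM and both pseudogenes at 0. All 13 rows from Atp5e to Atp5sl that have a value in a shallow library gave whole reads only with the gene length of the row above them, and 0 of the 13 did so with their own length. The values were therefore also read after moving the shallow values of this stretch up by 1 row, which brings Atp5l to 100.5 to 139 RPKM in the shallow libraries, gives Atp5d a shallow value, returns the 4 Atp5 pseudogenes to 0 and leaves Atp5sl without a shallow value. ATP synthase values below are the moved ones unless a sentence says "as deposited", and all fits on recovered reads use them. Cox5b, Ndufa6, Ndufb9 and Ndufs4 needed a different gene length in the 2 sets, a further reason to compare their RPKM within a set only.

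**Figure D1:**
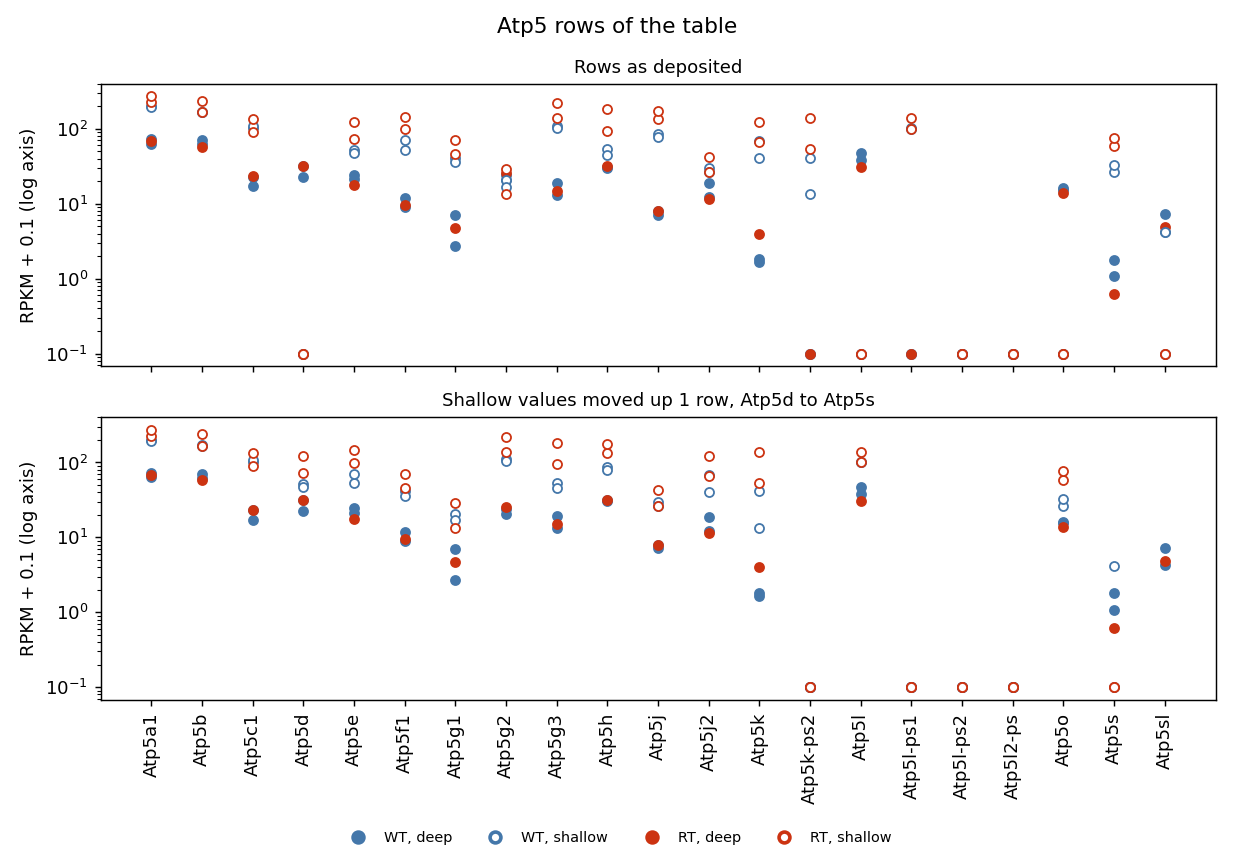
RPKM plus 0.1 (log axis) of each Atp5 row in the 7 libraries, as deposited (top) and with the shallow values moved up 1 row from Atp5d to Atp5s (bottom); blue marks WT, red RT, filled circles the deep and open circles the shallow libraries. As deposited, Atp5d, Atp5l and Atp5o sit at 0 in the shallow libraries and 2 pseudogenes do not, while after the move all 15 ATP synthase genes have reads in both sets and the pseudogenes have none.

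Most subunit genes had higher fitted values in RT than in WT, but no member passed the test on the deposited values. With genotype and library set as terms, limma on log2(RPKM + 1) tested 79 of the 90 members and called 0 higher and 0 lower at an adjusted p of 0.05, where 0.219% of the 9605 genes tested were called higher and 0.0521% lower. Without adjustment, 11 members had a p under 0.05 on the higher side and 0 on the lower, against 7.04% and 5.97% of all genes. The fitted fold change was above 0 for 71 of the 79 members, against 48.1% of all genes, and its median was 0.44 on the log2(RPKM + 1) scale against -0.03 over all genes. These counts read the rows as deposited, so they include displaced Atp5 values and rows that encode no subunit. Of the 75 subunit genes tested, 68 were above 0, or 70 with the rows moved. With the rows moved, 11 members again had an unadjusted p under 0.05 on the higher side. By complex the median was 0.51 in complex I, 0.45 in complex II, 0.26 in complex III, 0.49 in complex IV and 0.20 in complex V, or 0.31 in complex V with the rows moved. Leaving out 1 library moved the median over all members to between 0.28 (without WT4) and 0.69 (without the library labelled RT1). In simulated data this test called 7 of 100 genes changed 2-fold and 58 of 100 changed 4-fold.

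When each value was weighed by its reads, 4 members rose in RT and 0 fell. Limma voom on the recovered reads, again with genotype and library set, tested the 71 members whose reads over the 4 shallow libraries came to at least 10, and called Uqcr10 of complex III and Ndufc2, Ndufa12 and Ndufs1 of complex I. Over all 6031 genes tested, 9.58% were called higher and 8.27% lower, so the members' share of higher calls was no larger than that of all genes. Without adjustment, 14 members were under 0.05 on the higher side and 2 on the lower, against 16.5% and 15.6%. The fitted value was above 0 for 48 of 71 members (47.8% of all genes), with a median log2 fold change of 0.15 against -0.02. This fit leans on the deep libraries: without the library labelled RT1 it called 0 members, without WT2 it called 10 higher and 1 lower, and without RT3 it called 2 higher. The share of all genes called was not counted for these fits, so their counts do not set the members apart from other genes.

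**Figure D2:**
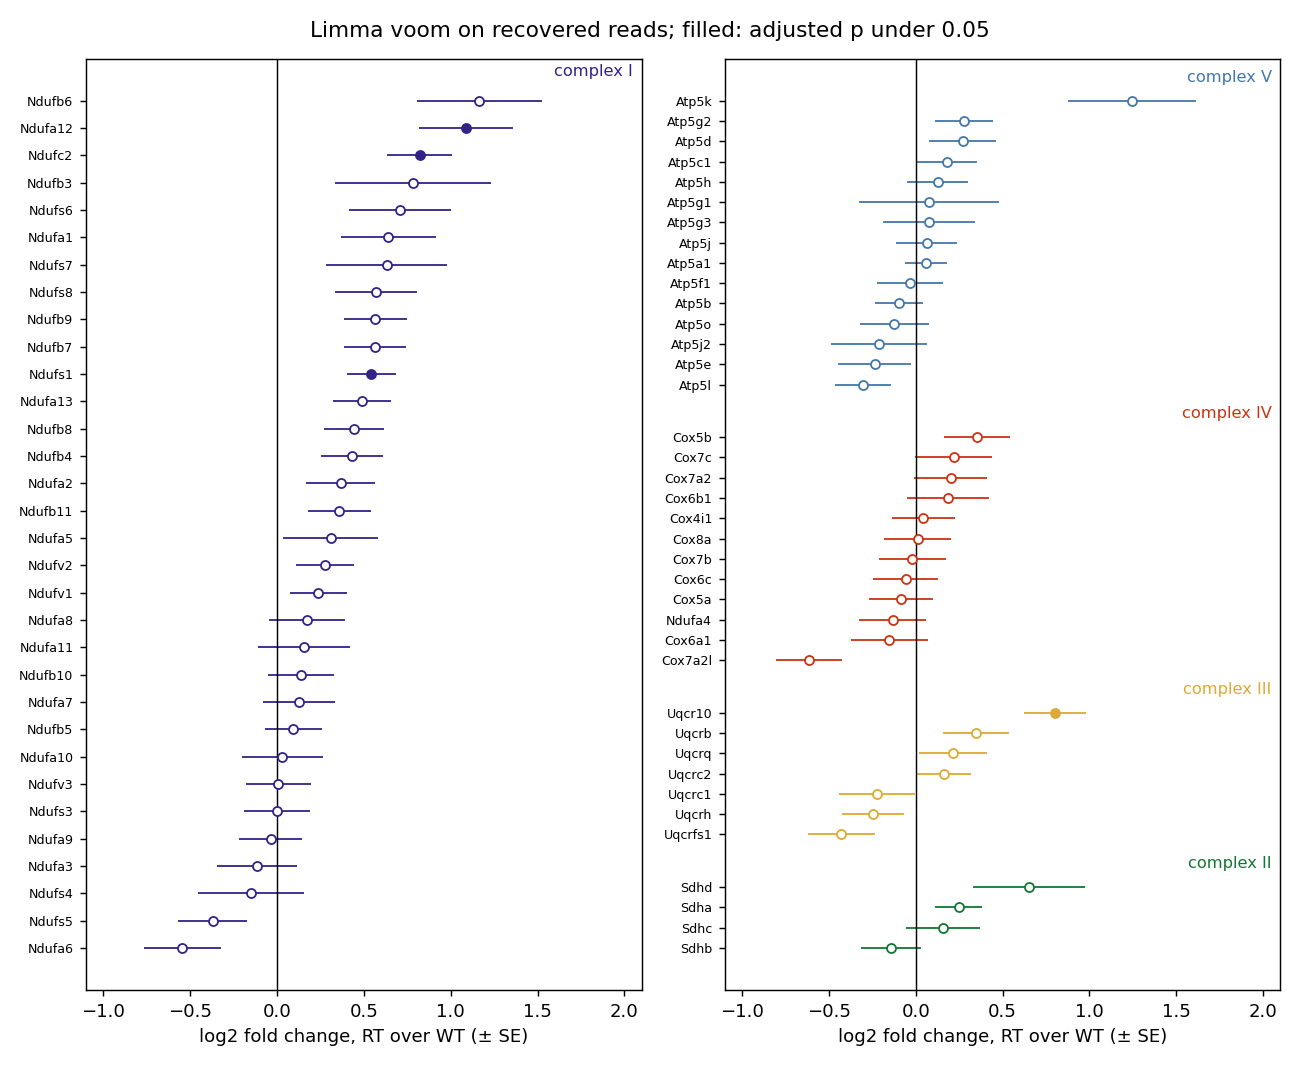
Log2 fold change of RT over WT with its standard error for 70 of the 71 members tested on recovered reads (limma voom, genotype and library set), complex I on the left and complexes II to V on the right; filled circles have an adjusted p under 0.05. The filled circles are Ndufa12, Ndufc2, Ndufs1 and Uqcr10, and the lowest value is that of Cox7a2l.

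The promoters of the 3 called genes with an entry in the RefSeq promoter table (build GRCm38.p6, 250 bases before to 50 after the start) are shown with that of Atp5k, the member with the largest fold change on recovered reads. Capitals mark matches to 1 of 3 motifs searched on both strands, the core of the NRF1 motif (10 letters, with either pyrimidine at its variable position), CCGGAAG (bound by ETS factors such as GABPA) and AAGATGGC (bound by YY1), factors known for many respiratory chain promoters. The Uqcr10 promoter lies at chr11:4704295-4704594 on the minus strand, that of Ndufc2 at chr7:97399753-97400052 on the plus strand, that of Ndufa12 at chr10:94198785-94199084 on the plus strand and that of Atp5k at chr5:108434350-108434649 on the minus strand.
Uqcr10: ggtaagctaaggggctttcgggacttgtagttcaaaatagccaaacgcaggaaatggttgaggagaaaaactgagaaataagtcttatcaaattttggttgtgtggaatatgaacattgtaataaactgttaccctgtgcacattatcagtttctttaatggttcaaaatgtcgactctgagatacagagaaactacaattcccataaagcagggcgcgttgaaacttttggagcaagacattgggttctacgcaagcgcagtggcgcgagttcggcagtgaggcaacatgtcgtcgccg
Ndufc2: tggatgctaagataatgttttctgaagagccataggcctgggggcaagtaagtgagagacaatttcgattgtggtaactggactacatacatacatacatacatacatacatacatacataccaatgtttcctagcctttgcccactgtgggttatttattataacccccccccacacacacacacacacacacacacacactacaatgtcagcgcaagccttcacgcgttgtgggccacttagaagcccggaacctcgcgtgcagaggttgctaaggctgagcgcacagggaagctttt
Ndufa12: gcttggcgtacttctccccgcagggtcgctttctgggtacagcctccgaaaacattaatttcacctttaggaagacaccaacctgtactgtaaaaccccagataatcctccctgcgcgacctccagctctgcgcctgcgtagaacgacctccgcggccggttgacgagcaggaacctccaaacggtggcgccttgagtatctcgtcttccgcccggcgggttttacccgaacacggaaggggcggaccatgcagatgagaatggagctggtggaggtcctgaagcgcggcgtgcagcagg
Atp5k: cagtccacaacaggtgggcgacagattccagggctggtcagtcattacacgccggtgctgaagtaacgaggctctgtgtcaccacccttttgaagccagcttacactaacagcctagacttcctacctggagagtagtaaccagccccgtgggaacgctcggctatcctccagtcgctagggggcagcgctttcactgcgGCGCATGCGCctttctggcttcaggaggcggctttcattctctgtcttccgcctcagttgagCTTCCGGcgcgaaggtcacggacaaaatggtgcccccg
The Atp5k promoter held the NRF1 motif at 1 place, matched on both strands, and the ETS motif once on the opposite strand, as CTTCCGG, and the promoters of the 3 called genes held none of the 3 motifs. Of the 90 members, 66 had entries, with 71 promoters in all. The NRF1 motif was in 14.1% of these promoters (10 of 71) and in 2.27% of all 32851 promoters of the table (7.04% and 0.971% with only T at the variable position, 25.4% and 4.6% with any base there), the ETS motif in 22.5% (16) and 8.86%, and the YY1 motif in 12.7% (9) and 2.75%. The NRF1 motif was found for Ndufa6, Ndufa11, Ndufb4, Sdhd, Uqcrc1, Cox6a1, Atp5c1, Atp5g2, Atp5k and Atp5o. A match describes letters in this window and shows no binding.

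In complex I, the NADH dehydrogenase, 3 of the 33 members tested on recovered reads were higher and 0 lower, a share of higher calls close to the 9.58% of all genes. The median log2 fold change was 0.31, and the deep and shallow sets both had positive medians. Ndufs1, on chromosome 1 (63143596-63176833), encodes the large iron-sulphur core subunit that passes electrons from NADH inward. It stood at 4.95 and 5.86 RPKM in WT1 and WT2 and at 8.11 in the library labelled RT1, and at 12.6 and 14.1 in WT3 and WT4 and 16.2 and 19.4 in RT2 and RT3. Within each set all RT values lay above all WT values. Its log2 fold change on recovered reads was 0.54 ± 0.14 (SE, adjusted p = 0.0328, limma voom, 3 RT and 4 WT libraries).

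The other core subunits described here, which like Ndufs1 belong to the matrix arm, did not pass. Ndufs7, at the ubiquinone site, stood at 5.49 and 12.9 RPKM in WT1 and WT2 and 13.2 in the library labelled RT1, and at 9.79 and 9.57 in WT3 and WT4 and 27.5 and 23.9 in RT2 and RT3, from 2 or 5 reads in each shallow library. Ndufv2, which holds an iron-sulphur cluster near the NADH site, stood at 11.2 and 13.4 RPKM in WT1 and WT2 and 14.6 in the library labelled RT1, and at 25.3 and 37.2 in WT3 and WT4 and 57 and 62 in RT2 and RT3. In both genes RT lay above WT in each set, with log2 fold changes of 0.63 ± 0.35 for Ndufs7 and 0.27 ± 0.17 for Ndufv2. Ndufv1, the NADH-binding subunit, and Ndufs8 lay above both WT libraries in the library labelled RT1 and overlapped in the shallow set, at 0.24 ± 0.16 and 0.57 ± 0.23. Ndufs3 lay between the WT libraries in the library labelled RT1 and above WT in the shallow set, at -0.00 ± 0.19.

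Ndufc2 and Ndufa12 are accessory subunits, Ndufc2 in the membrane arm and Ndufa12 in the matrix arm. Ndufc2 (chromosome 7, 97400003-97407802) stood at 11.1 and 10.5 RPKM in WT1 and WT2 and 19.6 in the library labelled RT1, and at 33.4 and 32.7 in WT3 and WT4 and 37.6 and 65.4 in RT2 and RT3, with no overlap in either set. Its shallow values rest on 3 reads in each of WT3, WT4 and RT2 and 6 in RT3, and its log2 fold change was 0.82 ± 0.19 (SE, adjusted p = 0.0211, limma voom). Ndufa12 (chromosome 10, 94198720-94221443) stood at 4.12 and 6.92 RPKM in WT1 and WT2 and 12.2 in the library labelled RT1. In the shallow set it stood at 25.2 and 18.5 RPKM in WT3 and WT4 and at 21.3 and 18.5 RPKM in RT2 and RT3, from 3 or 4 reads each, so the groups overlapped there. Its log2 fold change of 1.09 ± 0.27 (SE, adjusted p = 0.0273, limma voom) came from the deep set, where it was 1.14, and turned to -0.16 in the shallow set alone.

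The other complex I genes lay between -0.55 and 1.16 on recovered reads and did not pass the test. Ndufb6, a membrane arm subunit, had the largest value, 1.16 ± 0.36 (SE, adjusted p = 0.06, limma voom), with 5.88 and 14 RPKM in WT1 and WT2 and 21.5 in the library labelled RT1. Ndufa6 had the lowest, and its values in the 2 sets went opposite ways, at 28.4 and 29.9 RPKM in WT1 and WT2 against 17.7 in the library labelled RT1, and at 74.2 and 81.7 RPKM in WT3 and WT4 against 157 and 99.8 in RT2 and RT3. Ndufb11, a membrane arm subunit, had the highest mean RPKM of the complex, with 26.6 and 36.3 RPKM in WT1 and WT2, 39.4 in the library labelled RT1, 111 and 72.4 in WT3 and WT4, and 156 and 172 in RT2 and RT3. Its RT values lay above the WT values in each set, and its log2 fold change was 0.36 ± 0.18 (SE, adjusted p = 0.217, limma voom).

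In complex II, the succinate dehydrogenase, 0 of the 4 genes passed either test, where 9.58% of all genes were called higher and 8.27% lower on recovered reads. Sdha, the flavoprotein that oxidises succinate, stood at 18.1 and 21 RPKM in WT1 and WT2 and 23.4 in the library labelled RT1, with 65.2 and 47.8 in WT3 and WT4 and 64.2 and 75.7 in RT2 and RT3. Its groups overlapped in the shallow set. Sdhd, a membrane anchor, stood at 7.39 and 15.5 RPKM in WT1 and WT2, 16.9 in the library labelled RT1, 54.6 and 13.4 in WT3 and WT4, and 84.5 and 60.1 in RT2 and RT3. The RT values of Sdhd lay above the WT values in each set, but WT3 and WT4 lay far apart, at 8 and 2 reads, and its log2 fold change was 0.65 ± 0.32 (SE, adjusted p = 0.204, limma voom). Sdhb, the iron-sulphur subunit, had a log2 fold change of -0.14 ± 0.17 and was below 0 in the deep and in the shallow set (-0.13 and -0.39), and Sdhc, the other anchor, 0.16 ± 0.21.

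In complex III, the cytochrome bc1 complex, Uqcr10 rose and the other 6 genes tested did not pass. Of all genes, 9.58% were called higher and 8.27% lower on recovered reads, so 1 call does not set the complex apart. Uqcr10 (chromosome 11, 4701973-4704342) encodes a small subunit of the complex. It stood at 20.8 and 21.2 RPKM in WT1 and WT2 and 36.3 in the library labelled RT1, from 225, 248 and 462 reads. In the shallow set it stood at 57.6 and 28.2 RPKM in WT3 and WT4 and at 113 and 155 RPKM in RT2 and RT3, from 2 to 11 reads. RT lay above WT in both sets, and the log2 fold change was 0.80 ± 0.18 on recovered reads (SE, adjusted p = 0.0191, limma voom) and 1.32 ± 0.32 on the log2(RPKM + 1) scale (SE, adjusted p = 0.158, limma). Uqcrb and Uqcrq, small subunits, also lay higher in RT in both sets without overlap, with log2 fold changes of 0.34 ± 0.19 and 0.22 ± 0.20 on recovered reads. Uqcrq rested on 1 to 6 reads in each shallow library.

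Uqcrfs1, which encodes the Rieske iron-sulphur protein, Uqcrh, the hinge protein, and Uqcrc1, a core protein, were lower in the library labelled RT1 and higher in RT2 and RT3 than in the WT libraries of the same set. Uqcrfs1 stood at 19.3 and 24.9 RPKM in WT1 and WT2 and 15.9 in the library labelled RT1, and at 49.3 and 36.2 in WT3 and WT4 and 76.3 and 54.3 in RT2 and RT3. Its log2 fold change was -0.50 in the deep set and 0.51 in the shallow set, and that of Uqcrh was -0.37 and 0.29. The difference between the sets was 1.01 ± 0.71 for Uqcrfs1 (SE, adjusted p = 0.754, limma voom). Uqcrc2, the other core protein, had a log2 fold change of 0.16 ± 0.16. Uqcr11, a small subunit, had 5 reads in RT3, 0 in RT2 and 2 in each of WT3 and WT4, too few for the test on reads, and stood at 8.91 and 7.32 RPKM in WT1 and WT2 and 17.4 in the library labelled RT1.

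In complex IV, the cytochrome c oxidase, 0 of 12 genes tested on recovered reads passed, against 9.58% of all genes higher and 8.27% lower. The median log2 fold change was -0.00. Cox7a2l was listed under the assembly of supercomplexes. Whether its protein joins complexes III and IV in the mouse strain used here was not tested. Cox7a2l was the only member whose RT values all lay below all WT values within both sets. It stood at 82.9 and 126 RPKM in WT1 and WT2 and 62.3 in the library labelled RT1, and at 344 and 373 in WT3 and WT4 and 313 and 315 in RT2 and RT3. Its log2 fold change was -0.62 ± 0.19 on recovered reads (SE, adjusted p = 0.0587, limma voom), -0.74 in the deep set and -0.24 in the shallow set. It was also the most abundant member of its complex by mean RPKM. It is located on chromosome 17 (83501918-83517330).

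Several common isoforms of complex IV had a small negative value in the deep set and a positive one in the shallow set. None of them passed the test of the difference between the sets, which was 0.81 ± 0.54 (SE) for Cox4i1. Cox4i1, a regulatory subunit, stood at 40.3 and 50 RPKM in WT1 and WT2 and 43.6 in the library labelled RT1, and at 75.9 and 111 in WT3 and WT4 and 195 and 138 in RT2 and RT3. Its log2 fold change was -0.07 in the deep set and 0.75 in the shallow set. Cox6a1 was at -0.27 and 0.95, Cox7b at -0.09 and 1.15, Cox8a at -0.06 and 0.54, and Ndufa4, a subunit of complex IV despite its name, at -0.23 and 0.76, while Cox6b1, Cox7a2 and Cox5b were above 0 in both sets. Cox5b had the largest fold change of the complex on recovered reads, 0.35 ± 0.19 (SE, adjusted p = 0.246, limma voom).

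Of the 8 tissue-restricted isoforms, 6 had no reads and the other two had few. Cox4i2, Cox7a1, Cox7b2, Cox8b, Cox8c and Ndufa4l2 were listed at 0 in all 7 libraries, which allows up to 0.242 to 0.301 RPM in a deep library (3 reads) and 24.6 to 28.3 RPM in a shallow one. Cox6b2, the testis form of Cox6b1, had 11 reads in the library labelled RT1 and 0 in every other library. Cox6a2, the heart and muscle form of Cox6a1, had 0 reads in WT1, 23 in WT2 and 44 in the library labelled RT1, and 1 read in RT3. Cox6a1, its common partner, had 433 to 664 reads in the deep libraries. Limits of this kind cover counting error only.

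In complex V, the ATP synthase, 0 of 15 genes passed on recovered reads, against 9.58% of all genes higher and 8.27% lower. The median log2 fold change was 0.06. Atp5k, which encodes the small membrane subunit e, had the largest value, 1.24 ± 0.37 (SE, adjusted p = 0.0502, limma voom). It stood at 1.57 and 1.7 RPKM in WT1 and WT2 and 3.87 in the library labelled RT1, from 18, 21 and 52 reads, and at 40.9 and 13.3 RPKM in WT3 and WT4 and 138 and 53.4 in RT2 and RT3, from 1 to 9 reads. RT lay above WT in both sets. Atp5l, which encodes subunit g of the membrane part, was the lowest, at -0.30 ± 0.16 (SE, adjusted p = 0.237, limma voom), with 37.9 and 46.9 RPKM in WT1 and WT2 and 30.7 in the library labelled RT1. Atp5a1, the catalytic head's alpha subunit and the most abundant member of the complex by mean RPKM, stood at 63.1 and 72.9 RPKM in WT1 and WT2, 67.6 in the library labelled RT1, 201 and 194 in WT3 and WT4, and 229 and 270 in RT2 and RT3.

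The remaining ATP synthase genes stayed within 0.3 of 0 on recovered reads. In the head and central stalk, Atp5b, the catalytic beta subunit, was at -0.10 ± 0.14, Atp5c1 (gamma) at 0.18 ± 0.17, Atp5d (delta) at 0.27 ± 0.19 and Atp5e (epsilon) at -0.24 ± 0.21. Atp5e stood at 21.2 and 24.3 RPKM in WT1 and WT2 and 17.6 in the library labelled RT1, and at 52.7 and 70.2 in WT3 and WT4 and 145 and 98.3 in RT2 and RT3, so it lay below WT in the deep set and above it in the shallow set. In the peripheral stalk, which holds the head in place, Atp5f1, Atp5h, Atp5j and Atp5o ran from -0.12 to 0.13. Atp5o stood at 16.1 and 15.4 RPKM in WT1 and WT2 and 13.6 in the library labelled RT1, and at 26.1 and 32.8 in WT3 and WT4 and 58.6 and 76.4 in RT2 and RT3, again with opposite directions in the 2 sets. Read as deposited, Atp5d and Atp5o would be at 0 in all 4 shallow libraries.

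The 3 genes Atp5g1, Atp5g2 and Atp5g3 encode the same mature c-ring subunit. Atp5g3 rose in the shallow set alone, where its reads were 14 and 12 in WT3 and WT4 and 42 and 25 in RT2 and RT3, with a log2 fold change of 1.30 ± 0.41 (SE, adjusted p = 0.0453, limma voom, 2 against 2 libraries). In the deep set it was at 13.2 and 18.9 RPKM in WT1 and WT2 and 14.8 in the library labelled RT1, with a log2 fold change of -0.13. The difference between the sets was 1.41 ± 0.68 (SE, adjusted p = 0.616, limma voom). Atp5g2 stood at 20.4 and 23.8 RPKM in WT1 and WT2, 25.7 in the library labelled RT1, 110 and 103 in WT3 and WT4, and 220 and 137 in RT2 and RT3, and Atp5g1 had a log2 fold change of 0.08 ± 0.40. Atp5g1 and Atp5g2 did not pass either.

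The summed level of the members was raised in the shallow RT libraries over the shallow WT libraries, but not in the library labelled RT1. All members together came to 4532 and 5084 RPM in WT1 and WT2 and 4653 RPM in the library labelled RT1, and to 8045 and 7444 RPM in WT3 and WT4 and 11626 and 10241 RPM in RT2 and RT3. Complex I was at 1165 and 1263 RPM in WT1 and WT2 and 1385 in the library labelled RT1, and at 1863 and 1716 in WT3 and WT4 and 2699 and 2591 in RT2 and RT3. Only complexes I and II were above both deep WT libraries in the library labelled RT1, while complex IV was at 705 and 834 RPM in WT1 and WT2 and 675 in that library, below both. These sums were not tested.

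**Figure D3:**
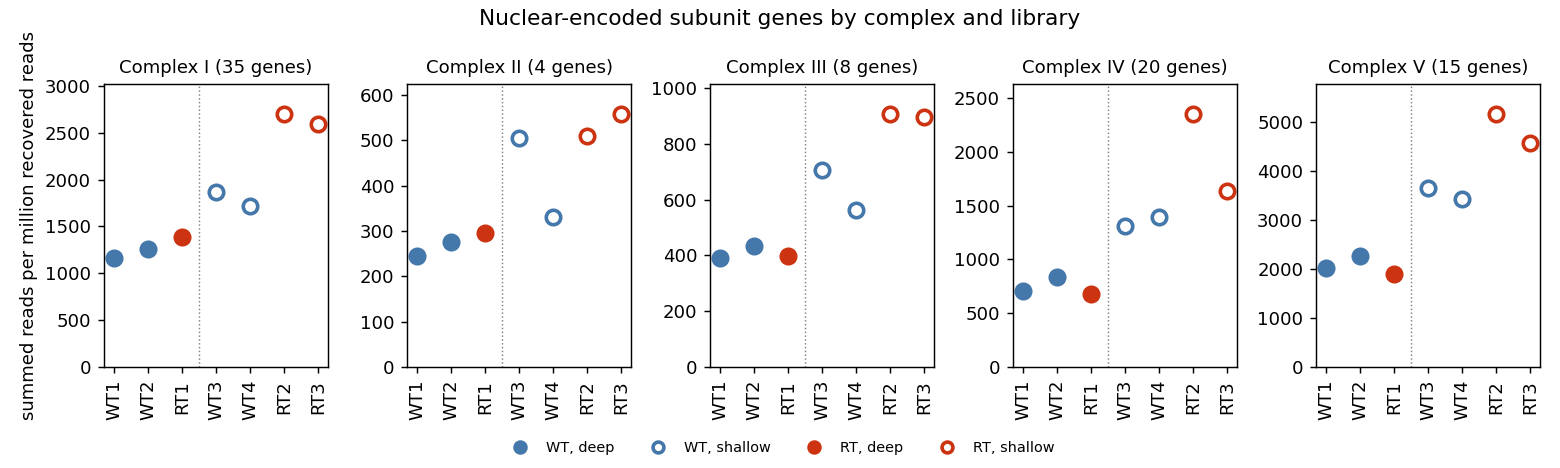
Summed RPM of the members of each complex in each library, with the deep libraries (filled) left and the shallow ones (open) right of the dotted line and WT in blue and RT in red. In the shallow set both RT libraries lie above both WT libraries for all 5 complexes, by the least for complex II, while in the deep set the library labelled RT1 is above both WT libraries for complexes I and II only.

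Fitted alone, the 2 sets gave the members different medians. In the deep set, where the single RT library is taken to vary like the 2 WT libraries, 0 members were called higher and 0 lower, against 4.05% and 2.11% of the 6031 genes. The median was 0.13 (-0.03 over all genes), 43 of 71 members were above 0 (47.9% of all genes), and the medians were 0.25 in complex I, 0.18 in complex II, 0.17 in complex III, -0.08 in complex IV and -0.03 in complex V. In the shallow set 1 member (Atp5g3) was called higher and 0 lower, against 2.72% and 3.52%. Its median was 0.62 (-0.07 over all genes), 63 of 71 members were above 0 (46.5% of all genes), and the medians ran from 0.57 in complex I to 0.75 in complex IV. In the test of the difference between the sets, 0 of 71 members passed, against 0.829% of all genes, with a median difference of 0.55 and 57 members above 0 (46.9% of all genes), among them all 12 of complex IV.

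**Figure D4:**
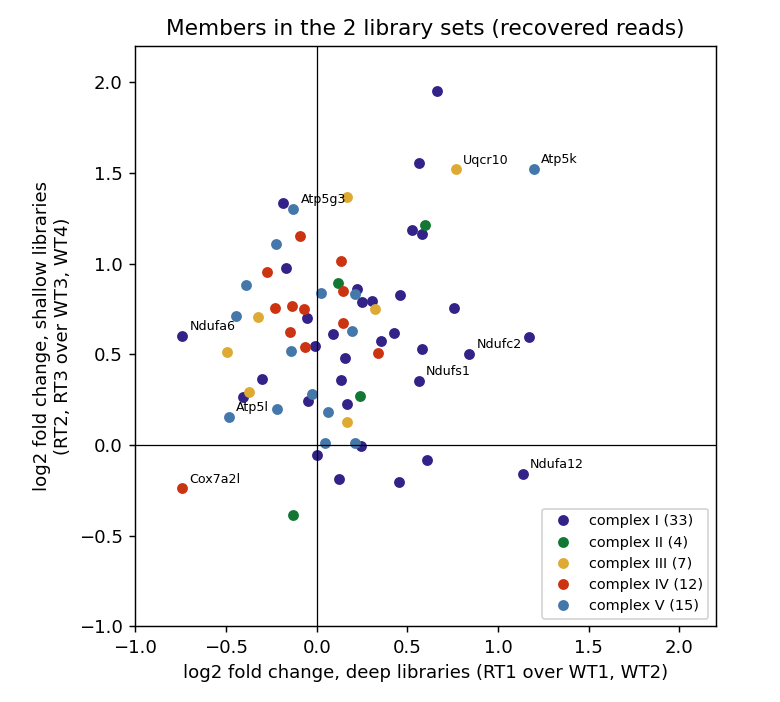
Log2 fold change of the 71 members tested on recovered reads, in the deep set (x axis, the library labelled RT1 over WT1 and WT2) and in the shallow set (y axis, RT2 and RT3 over WT3 and WT4), coloured by complex. Of these members, 63 lie above 0 on the y axis and 43 above 0 on the x axis, and complex IV lies mostly to the left of 0 on the x axis.

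In the shallow set markers of the sorted cells were also higher in RT, while most lists of other spleen cells were lower. The 12 CD4 T cell identity genes summed to 7340 and 6798 RPM in WT3 and WT4 and 12627 and 11044 in RT2 and RT3. In the shallow set alone 7 of 12 were called higher, against 2.72% of all genes, with Cd3d, Zap70 and Cd3g at the smallest p. Cd5 went the other way there, at -0.64 ± 0.27 (SE). Over both sets Zap70 was called higher and Cd5 lower, at 1.08 ± 0.17 and -0.95 ± 0.18 (SE, adjusted p = 0.00521 and 0.0105, limma voom), where 9.58% of all genes were called higher and 8.27% lower. The B cell, plasma cell, dendritic cell and erythroid lists went the other way, with the plasma cell list at 1846 and 1844 RPM in WT3 and WT4 against 293 and 279 in RT2 and RT3, the dendritic cell list at 575 and 544 against 94.4 and 107, and the erythroid list at 1611 and 1589 against 368 and 164. In the shallow set alone 4 of 9 B cell, 2 of 4 plasma cell, 1 of 6 dendritic cell and 3 of 4 erythroid genes tested were called lower, and 0 of these lists' genes higher. Of all genes, 3.52% were called lower and 2.72% higher there. The CD8 T and natural killer cell list was at 157 and 110 RPM in WT3 and WT4 against 557 and 271 in RT2 and RT3. One of its genes, Nkg7, stood at 64.4 and 27 RPKM in WT3 and WT4 and at 414 and 198 RPKM in RT2 and RT3. In the library labelled RT1 the list was at 51.6 RPM, below the 147 and 125 RPM of WT1 and WT2. Over both sets, the median of its 7 genes tested on log2(RPKM + 1) was -0.65. The monocyte and macrophage list was at 1393 and 1232 RPM in WT3 and WT4 against 444 and 599 in RT2 and RT3, with 2 of 7 genes (Csf1r and Lyz2) called lower in the shallow set alone. The library labelled RT1 differed from RT2 and RT3 in several of these lists. Its T cell identity sum of 5320 RPM lay below the 6095 and 6155 RPM of WT1 and WT2, while its monocyte and macrophage sum, given above, its plasma cell sum (562 against 189 and 159 RPM) and its B cell sum (362 against 277 and 211 RPM) lay above them. Its dendritic cell and erythroid sums lay between those of WT1 and WT2. As the only deep RT library it has no replicate. The neutrophil list was at 98.1 RPM in the library labelled RT1 against 19.6 and 4.73 RPM in WT1 and WT2, and rested on 1 to 3 reads in each shallow library. Within these lists, Elane of the neutrophil list and Klf1 of the erythroid list were at 0 in all libraries. The part of these cells in the members' values was not tested.

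Counted by groups that do not overlap within either set, 20 of the 75 members kept lay higher in RT in both sets and 1 lower, Cox7a2l, where 10.2% of the 9601 genes kept did so in each direction. Of the 20, 13 belong to complex I (Ndufa1, Ndufa5, Ndufa13, Ndufb7 to Ndufb11, Ndufc1, Ndufc2, Ndufs1, Ndufs7 and Ndufv2), 1 to complex II (Sdhd), 3 to complex III (Uqcr10, Uqcrb and Uqcrq), 0 to complex IV and 3 to complex V (Atp5g2, Atp5h and Atp5k). In the deep set alone 39 members lay higher and 15 lower in the library labelled RT1, against 39.7% and 34.2% of all genes. In the shallow set alone 42 lay higher and 2 lower (Cox7a2l and Sdhb), against 19.4% and 24.1%.

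The members' levels also differed between the 2 sets in the wild type. From the deep to the shallow WT libraries the median member rose by 1.38 on the log2 RPKM scale, against 0.27 over all 9601 genes, or 0.74 against -0.09 on the log2 RPM scale. The shift was 1.59 in complexes IV and V and 1.24 to 1.27 in complexes I, II and III on the log2 RPKM scale. The 13 subunits encoded by mitochondrial DNA shifted by 3.87 on that scale, and by 3.05 on the log2 RPM scale. Shifts in RPKM take in the larger share of the total that fell in genes in the shallow libraries, which RPM leave out. The cause of the shifts in RPM was not tested.

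In each of 5 lists of genes around the complexes, 0 to 2 genes were called on recovered reads, where 9.58% of all genes were called higher and 8.27% lower. The 13 mitochondrial DNA-encoded subunits had 0 called in either direction in the test on recovered reads, with a median log2 fold change of 0.15, and they were at 8109 and 7089 RPM in WT1 and WT2 and 8366 in the library labelled RT1, and at 29500 and 32748 in WT3 and WT4 and 40013 and 24253 in RT2 and RT3. Among 17 assembly factors tested, Sdhaf1, which assembles complex II, rose by 1.01 ± 0.24 (SE, adjusted p = 0.0216, limma voom). Of 5 carriers and subunits outside the symbol rule, Atpif1, the inhibitor of the ATP synthase, rose by 0.88 ± 0.20 (SE, adjusted p = 0.02, limma voom), with 4.78 and 4.23 RPKM in WT1 and WT2, 8.4 in the library labelled RT1, 17.5 and 11.4 in WT3 and WT4 and 26.2 and 34.2 in RT2 and RT3. Of 12 regulators of mitochondrial biogenesis, Myc and Tfam, the mitochondrial transcription factor, were lower, at -1.56 ± 0.24 and -0.73 ± 0.17 (SE, adjusted p = 0.00471 and 0.0217, limma voom). Tfam stood at 7.28 and 8.2 RPKM in WT1 and WT2 and 4.62 in the library labelled RT1, but at 9.47 and 11.1 in WT3 and WT4 and 6.39 and 14.8 in RT2 and RT3, so its groups overlapped in the shallow set, where its log2 fold change was -0.07. Myc was at -0.62 in the shallow set alone and did not pass there. Among 19 genes of the citrate cycle and pyruvate dehydrogenase, Pdk1, a kinase that inhibits pyruvate dehydrogenase, was lower, at -2.50 ± 0.19 (SE, adjusted p = 0.000398, limma voom), with 12.9 and 16.7 RPKM in WT1 and WT2 and 2.61 in the library labelled RT1, and 21.6 and 15.9 in WT3 and WT4 and 7.29 and 2.11 in RT2 and RT3. In the test on log2(RPKM + 1), 0 genes of these 5 lists passed.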

How the data were processed

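RNA of CD4+ splenocytes was made into TruSeq libraries, per the labels' protocols. The authors deposited RPKM values for each library, made on build mm10 (per the submitters' processing notes). Aligner, counter, annotation and the handling of reads shared with pseudogenes are not stated. Members and gene lists were chosen with earlier results of these data known.

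The main test was limma 3.58.1 (R 4.3.3) on log2(RPKM + 1), with genotype and library set as terms, over genes that reached 1 RPKM in 3 or more of the 7 libraries, with Benjamini-Hochberg adjustment over all genes at 0.05. Fold changes on this scale understate those of low genes. Reads were recovered by matching the RPKM steps to GENCODE M21 lengths (tolerance 0.003 reads), with 12965 genes of 1 length, 884 of 1 length per set, 5730 at 0 and 10 that could not be fitted. Limma voom was run on genes with at least 10 reads over the shallow set, with sums of recovered reads as library sizes. The 3 forms of the NRF1 motif, the move of the Atp5 rows, a fit on rows with 1 length and median-ratio library sizes were chosen after seeing the data. Both tests were tested on simulated data. Voom called 26 of 92 genes changed 2-fold and 83 of 91 changed 4-fold. None of the 21 pairs of libraries held identical values. Coordinates are of GENCODE M21. The members named were those past either threshold, the 2 smallest p and the highest mean RPKM in each complex, and the isoforms, Sdh, Uqcr and c-ring genes whatever their values; Ndufa6 and Ndufb6 were added after seeing their values. A single member, counted in the totals, is not reported here by name.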

Additional observations from a re-analysis of the deposited data

Results flagged for a closer look

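Of the 32 groups of 4 wild-type values examined, 2 had a library far from the other 3, where chance flags about 1 in 20 groups of like samples, a rate that does not allow for the 2 deep and 2 shallow libraries in each of these groups. Cox6a2 stood at 1.688 RPKM in WT2, where 23 reads lay behind it, and at 0 in the other 3 wild-type libraries. Cox6b1 stood at 197.4 RPKM in WT4, from 17 reads, against 51 to 71.2 RPKM in the other 3. WT4 belongs to the shallow set, which also holds WT3 at 71.2 RPKM from 6 reads.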

How the results depend on the processing

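On log2(RPKM + 1), 0 members passed in either direction under every alternative run on that scale, including each library left out in turn, and simulated 2-fold changes were mostly missed at this depth. With reads weighed, 4 members were higher over both sets. In the shallow set alone 1 member was higher, Atp5g3, which is not among the 4. Leaving out 1 library moved the count higher over both sets from 0 (without the library labelled RT1) to 10 (without WT2), and the count lower from 0 to 1. A minimum of 30 reads left 47 members tested and gave 3 higher and 2 lower. Median-ratio library sizes gave 6 higher and 0 lower. For the fits without 1 library, with 30 reads and with median-ratio library sizes, the share of all genes called was not counted. Leaving out 1 library on log2(RPKM + 1) gave medians of 0.28 to 0.69 over all members, 0.41 to 0.65 in complex I, 0.23 to 0.63 in complex II, 0.034 to 0.67 in complex III, 0.27 to 0.83 in complex IV and 0.14 to 0.63 in complex V.

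With genotype as the only term the median was 0.77 over all members, 0.71 in complex I, 0.81 in complex IV and 0.52 in complex V. With reads weighed it was 0.15 over all members, 0.31 in complex I and -0.0045 in complex IV. In the deep set it was 0.13 over all members, 0.25 in complex I, -0.079 in complex IV and -0.028 in complex V. In the shallow set it was 0.62 over all members, 0.70 in complex III, 0.75 in complex IV and 0.63 in complex V. Medians not named here moved by less than their spread.

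The replicate numbers do not pair the libraries, since WT2 is deep and RT2 shallow. With the replicate number as a block, 0 members passed, the median was 0.36, and 13 of 79 members changed sign, among the members named by rule to -0.13 for Atp5g2, -0.074 for Cox5b, 1.08 for Uqcr11, -0.065 for Uqcrfs1 and -0.015 for Uqcrh. Of the 71 members tested both ways, 19 changed sign with reads weighed, 24 in the deep set alone and 8 in the shallow set alone, and the values given here are again those of the members named by rule. Weighing reads turned Cox6a1 to -0.15, Cox7b to -0.019, Ndufa4 to -0.13, Uqcrc1 to -0.22, Uqcrfs1 to -0.43 and Uqcrh to -0.25. The deep set alone turned Atp5a1 to -0.028, Atp5g3 to -0.13, Cox4i1 to -0.069, Cox6a1 to -0.27, Cox7b to -0.089, Cox8a to -0.064, Ndufa4 to -0.23, Uqcrc1 to -0.32, Uqcrfs1 to -0.50 and Uqcrh to -0.37, and the shallow set alone turned Atp5l to 0.15 and Ndufa12 to -0.16. Leaving out 1 library gave -0.11 to 0.41 for Atp5g2, -0.0094 to 0.98 for Cox6b1, -0.12 to 0.57 for Ndufa12, -1.87 to 1.15 for Uqcr11, -0.044 to 0.60 for Uqcrfs1 and -0.11 to 0.36 for Uqcrh. The cause of these changes was not tested.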

Other observations

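Cytosolic and mitochondrial ribosomal protein genes were listed by symbol. The 82 cytosolic genes summed to 65720 and 90900 RPM in WT1 and WT2 and 45904 in the library labelled RT1, and to 74707 and 76245 in WT3 and WT4 and 92530 and 70881 in RT2 and RT3. On recovered reads 0 of 81 were higher and 2 lower (Rpl29 and Rpl23a), against 9.58% and 8.27% of all genes, and the log2 fold change had a median of -0.43. The 83 mitochondrial ribosomal protein genes, like the members, had higher sums in the shallow RT libraries and not in the library labelled RT1, with 1852 and 2042 RPM in WT1 and WT2 and 1751 in that library, and 1829 and 1767 in WT3 and WT4 and 2878 and 2337 in RT2 and RT3. Their median was 0.32 on the log2(RPKM + 1) scale and 0.36 on reads of the shallow set alone, and no test of their difference from the members was run. On recovered reads of both sets 0 of 42 were higher and 3 lower, with a median of 0.06, where 9.58% of all genes were called higher and 8.27% lower. The lower ones included Mrps16 and Mrps30, whose rows are not whole with their own gene length. Of 11 cell cycle genes tested on recovered reads, 1 was higher (Mcm6) and 0 lower, against the same 9.58% and 8.27% of all genes.

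Rows displaced by 1 are found outside the Atp5 block too. Of 10519 rows with a value in a shallow library and a gene length, 9611 gave whole reads with that length and 908 did not. Among the 908, 74 were whole with the length of the row above and 29 with that of the row below, while 45 of the 9611 were also whole with the length of the row above. These counts are over the whole table and take in the Atp5 rows described above. No row outside the Atp5 block was moved in any fit.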
